A study of Drosophila melanogaster with 3 samples.

Results

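Of the 7366 regions on the optimal list for clockwork orange (cwo) in fly embryos, 720 had their summit more than 1000 bp from every annotated transcription start site (TSS) and inside no annotated gene. These distal intergenic regions made up 9.77% of the list, with a 95% Wilson interval of 9.12 to 10.5%. The location rule used positions only, on build dm6, with transposable elements left out of the annotation. The data came from chromatin immunoprecipitation and sequencing (ChIP-seq) of embryos collected at 6 to 24 h (an age taken from the source name), whole and of both sexes pooled, from a transgenic line with GFP at the C-terminus of cwo. The precipitation used an anti-GFP antibody on chromatin sheared by sonication to a size range of 200 to 800. The 3 samples were biological replicates of this 1 group, and no second condition was analysed here. Whole embryos mix all tissues of the animal, so no cell type can be assigned to a region. The IDR (irreproducible discovery rate) procedure made the optimal list from a pooled list of 30000 regions and 3 replicate lists of 30000 regions each. They were compared with the 3423 equally placed regions of the pooled list whose summit lay more than 1000 bp from every optimal summit, called background regions here. Read depth is unknown from these lists, and intervals cover counting error over regions only.

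The cwo protein belongs to the bHLH-Orange repressors, a family that also holds hairy and the Enhancer of split proteins. In the circadian clock it binds E-boxes, the sites of CLK and CYC, and lowers the transcription of clock genes. Sequence far from gene starts in flies holds enhancers, many of which act on developmental regulators over several kilobases.

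Summits of the strongest distal intergenic regions, chosen by pooled signal, are shown as examples. The motif differences described further on were counted over all 720 regions. Each line gives the protein-coding genes on both sides, the rank of the region by signal in the optimal list, its position on dm6, and 121 bases centred on the summit, 5′ to 3′ on the plus strand of the RefSeq Release 6 genome. Capitals mark CACGTG, the E-box, and CACGCG, a site of Hes-type repressors, read on either strand.
Hacd1-Rh5, rank 1 (chr2L:12003343-12003463): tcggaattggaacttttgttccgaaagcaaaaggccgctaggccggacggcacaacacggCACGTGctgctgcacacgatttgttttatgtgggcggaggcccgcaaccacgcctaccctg
hry-SrpRbeta, rank 8 (chr3L:8696639-8696759): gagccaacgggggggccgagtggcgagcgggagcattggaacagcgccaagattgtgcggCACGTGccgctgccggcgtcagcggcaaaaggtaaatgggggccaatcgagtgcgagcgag
hry-SrpRbeta, rank 10 (chr3L:8705220-8705340): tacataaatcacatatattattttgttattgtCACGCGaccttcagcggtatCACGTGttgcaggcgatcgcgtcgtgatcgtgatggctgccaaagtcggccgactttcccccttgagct
CG5290-Eip75B, rank 14 (chr3L:17949201-17949321): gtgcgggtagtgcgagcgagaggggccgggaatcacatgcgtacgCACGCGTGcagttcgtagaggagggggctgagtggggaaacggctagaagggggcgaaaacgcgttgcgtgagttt
Rfx-cwo, rank 28 (chr3R:10384614-10384734): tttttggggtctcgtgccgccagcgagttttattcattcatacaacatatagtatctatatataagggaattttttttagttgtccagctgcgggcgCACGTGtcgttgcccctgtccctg
CG3348-CG3339, rank 29 (chr3R:27293248-27293368): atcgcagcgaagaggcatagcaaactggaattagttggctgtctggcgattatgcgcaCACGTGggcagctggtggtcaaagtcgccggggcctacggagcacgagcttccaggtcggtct
In contrast, 4 regions among the strongest 10 held neither hexamer within 100 bp of the summit. The one beside Su(z)2, at rank 111, is given by position only, further on, and the other 3 are shown.
hry-SrpRbeta, rank 18 (chr3L:8698023-8698143): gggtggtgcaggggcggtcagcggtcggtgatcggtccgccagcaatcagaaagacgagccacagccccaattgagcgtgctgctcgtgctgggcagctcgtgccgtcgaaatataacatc
hry-SrpRbeta, rank 82 (chr3L:8699817-8699937): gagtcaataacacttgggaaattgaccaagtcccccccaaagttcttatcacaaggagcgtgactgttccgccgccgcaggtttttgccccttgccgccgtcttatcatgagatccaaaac
RFeSP-chinmo, rank 115 (chr2L:1638713-1638833): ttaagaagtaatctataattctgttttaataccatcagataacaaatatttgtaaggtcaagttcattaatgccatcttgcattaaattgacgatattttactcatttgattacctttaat

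The strongest region of the whole optimal list was a distal intergenic one. It spanned 2L:12002871-12004363, with its summit 1137 bp from the start of Hacd1, an enzyme of long-chain fatty acid synthesis, in the gap towards the rhodopsin gene Rh5. Its signal, the deposited score of the peak caller, was 24645.3 in the pooled list and 4858.4, 8098.4 and 12512.5 in replicates 1, 2 and 3. Signal scales differed between lists, so ranks are the comparable value, and this region ranked 2, 1 and 1, a mean of 1.33 ± 0.577 (SD, n = 3).

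In 1 gap between hairy (hry) and SrpRbeta lay 4 of the 10 strongest distal intergenic regions. The pair-rule gene hry encodes another bHLH-Orange repressor, and SrpRbeta a subunit of the signal recognition particle receptor. Summits of these 4 regions lay 17446 to 26027 bp from hry and 13669 to 22250 bp from SrpRbeta. Those of ranks 8 and 18 were nearer hry, and those of ranks 10 and 82 were nearer SrpRbeta. The 4 regions spanned 3L:8696299-8697107, 3L:8704718-8705903, 3L:8697694-8699376 and 3L:8699545-8701344. The first ranked 9, 8 and 11 in replicates 1, 2 and 3, with signals of 2362.9, 3011.2 and 4229.4. The second ranked 17, 10 and 8, the third 14, 19 and 16, and the fourth 72, 87 and 81. A rank in a replicate is that of its region holding the optimal summit, and where several did, of the one with the nearest summit.

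Next to Eip75B, a nuclear receptor gene induced by ecdysone, the region at 3L:17948945-17949630 had its summit 1692 bp past the 3′ end of the gene and 1561 bp from the start of lncRNA:CR45393. Its ranks were 7, 15 and 19 in replicates 1, 2 and 3. Upstream of cwo itself, the region at 3R:10384469-10385034 had its summit 3584 bp from the gene and ranked 26, 27 and 26, a mean of 26.3 ± 0.577 (SD, n = 3). At 3R:27292130-27293650, between CG3348 and CG3339, a summit 1099 bp from the start of CG3348 ranked 23, 31 and 34.

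The last of the strongest 10 lay in the gaps beside Su(z)2 and chinmo. In the gap between Su(z)2, a Polycomb group gene, and CG13323, the region at 2R:13035117-13035566 ranked 100, 126 and 108 in replicates 1, 2 and 3. Upstream of chinmo, which encodes a BTB zinc finger protein known from neuronal timing, the region at 2L:1638481-1639057 ranked 142, 138 and 103. All 10 were held by every replicate, meaning that the optimal summit lay inside 1 of the 7366 strongest regions of that replicate. The nearest TSS belonged to a gene with an optimal summit within 1000 bp of 1 of its own TSSs in 7 of the 10.

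As a whole, distal intergenic regions were weaker than the rest of the list. Their median rank was 4509.5, against 3577.5 over the 6646 other optimal regions, 3325.5 for the 3966 promoter regions (summit within 1000 bp of a TSS) and 3952.0 for the 2680 distal regions inside genes. The 736 strongest regions of the list took 42 of the 720 distal intergenic regions (5.83%, 4.34 to 7.79%) and 694 of the 6646 others (10.4%, 9.73 to 11.2%). The odds ratio was 0.531 (0.385 to 0.733), with p = 4.6e-05 in a two-sided Fisher exact test over regions. Among the strongest 3683 optimal regions alone the call was lost, with an odds ratio of 0.870 (0.564 to 1.34, p = 0.599, Fisher exact test). Ranking within each replicate gave 6.67, 6.61 and 5.59% of distal intergenic regions in the equally defined top part of the list, a mean of 6.29 ± 0.605%, against 10.4 ± 0.0882% of other regions (SD, n = 3). Every replicate value of distal intergenic regions lay below those of other regions. Regions are not independent replicates. The p-values here treat each region as independent, so they can be too small where regions share a gap. With 3 replicates an exact sign-flip test cannot go below p = 0.25, so replicate values are given as mean and SD without a test.

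**Figure D1:**
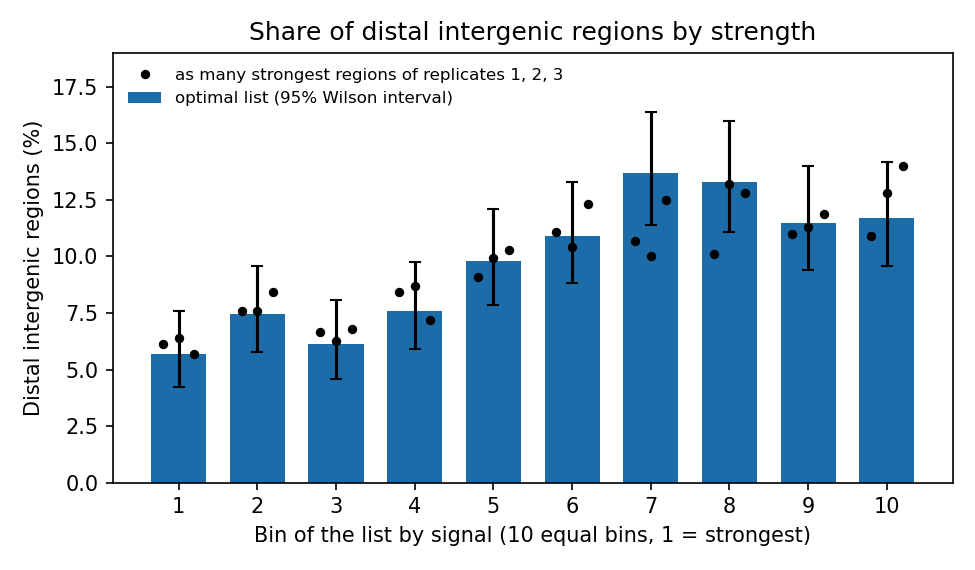
Share of distal intergenic regions (%, y axis) in each of 10 equal bins of the optimal list, ordered by signal from strongest to weakest (x axis). Bars give the optimal list with 95% Wilson intervals and points the strongest 7366 regions of replicates 1, 2 and 3. The share was 5.70% in the first bin and 13.7% in bin 7, the highest bar.

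Fewer of the distal intergenic regions were held by every replicate. Replicates 1, 2 and 3 held 565 (78.5%), 624 (86.7%) and 655 (91.0%) of the 720, a mean of 85.4 ± 6.35%, against 89.3 ± 2.64% of promoter regions and 87.1 ± 3.71% of distal regions inside genes (SD, n = 3). In replicates 1, 2 and 3 the shares were 86.3, 90.9 and 90.8% of promoter regions and 83.1, 87.9 and 90.4% of distal regions inside genes. Distal intergenic regions were thus lower than both in replicates 1 and 2 and higher than both in replicate 3. All 3 replicates held 474 of the 720 (65.8%), against 4822 of the 6646 other optimal regions (72.6%), an odds ratio of 0.729 (0.619 to 0.858) with p = 1.7e-04 in a Fisher exact test. Within the strongest 3683 optimal regions the direction was the opposite, with an odds ratio of 1.62 (p = 0.260, Fisher exact test). With the strongest region of each gap alone it was 0.858 (p = 0.163, Fisher exact test). Of the 50 strongest distal intergenic regions 49 were held by all replicates, and 4 of the 720 were held by none.

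The optimal list held fewer distal intergenic regions than its background. Their share was 9.77% of optimal regions, against 3423 of 18722 background regions (18.3%, 17.7 to 18.8%), an odds ratio of 0.484 (0.445 to 0.527) with p = 2.4e-69 in a Fisher exact test. With the strongest region of each gap alone it was 0.845 (0.754 to 0.947, p = 0.00389, Fisher exact test). Background leaves out pooled summits near optimal ones, promoter ones included. Over the whole pooled list the share was 15.1% (4526 regions). With background over 5000 bp from optimal summits the odds ratio was 0.365 (0.334 to 0.400), so its size depends on that distance. In the strongest 7366 regions of each replicate the share was 9.67 ± 0.516%, against 17.9 ± 0.610% of the regions of the same replicate more than 1000 bp from those summits (SD, n = 3). Sequence that met the location rule covered 33.6 of 133.9 Mb, or 25.1% of the 6 arms. Density was 21.4 distal intergenic optimal regions per Mb of it, against 66.3 other optimal regions per Mb of the remaining sequence.

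Ranks just past the 1000 bp limit overlapped with those just short of it. The 3 nearest members lay 1001 bp from CG33080, 1011 bp from CG9812 and 1013 bp from CG43219, at ranks 2175, 1773 and 3043. Intergenic regions left out by the smallest margin lay 998 bp from CG34039, 995 bp from CG4733 and 985 bp from CG43131, at ranks 4079, 1202 and 1878. In all, 1409 intergenic optimal regions lay within 1000 bp of a TSS and so count as promoter regions.

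The E-box CACGTG was more frequent at distal intergenic optimal summits than at background summits. It lay within 100 bp of 86 of the 720 summits (11.9%, 9.78 to 14.5%), against 240 of 3423 (7.01%, 6.20 to 7.92%). The odds ratio was 1.80 (1.39 to 2.33), with p = 2.5e-05 in a two-sided Fisher exact test. Over replicates 1, 2 and 3 the share lay between 11.5 and 12.3%, a mean of 11.9 ± 0.425%, against 6.41, 7.05 and 6.90% of background regions, a mean of 6.79 ± 0.333% (SD, n = 3). Every replicate value of the optimal kind lay above every background value. With the GC content of the window as a covariate in a logistic regression the odds ratio was 2.14 (1.63 to 2.80).

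The difference from its own background in CACGTG was smaller at distal intergenic regions than in the other classes. Promoter regions held it at 515 of 3966 summits (13.0%), against 296 of 6369 promoter background summits (4.65%), an odds ratio of 3.06 (2.64 to 3.55). Distal regions inside genes held it at 390 of 2680 (14.6%), against 516 of 8930 (5.78%), an odds ratio of 2.78 (2.42 to 3.19). The ratio of the distal intergenic odds ratio to the promoter one was 0.588 (0.435 to 0.793), and to the one inside genes 0.648 (0.482 to 0.871). Wald tests of these ratios, with n = 720 distal intergenic regions, gave Benjamini-Hochberg adjusted p = 0.00103 and 0.00399 over the 2 comparisons. Within replicates, the optimal share exceeded the background share by 5.11 ± 0.690 percentage points at distal intergenic regions, against 8.36 ± 0.207 at promoters and 8.80 ± 0.251 inside genes (SD, n = 3). Distal intergenic background also had the highest CACGTG share of the 3 backgrounds in these values.

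Among optimal regions alone, tests over the pooled regions did not separate the classes. Distal intergenic regions against promoter regions gave an odds ratio of 0.909 (0.713 to 1.16) with adjusted p = 0.468, and against distal regions inside genes 0.796 (0.621 to 1.02) with adjusted p = 0.159, in Fisher exact tests. In the strongest 7366 regions of replicates 1, 2 and 3 the CACGTG share was 12.3, 12.0 and 11.5% for distal intergenic regions, against 12.5, 12.8 and 12.9% for promoter regions and 14.1, 14.7 and 14.3% for distal regions inside genes. The distal intergenic share was the lowest of the 3 in each replicate and overlapped with neither other class. With the promoter limit at 500 bp the first ratio was 1.04, and with log2 signal as a covariate it was 1.07, so its direction depends on both choices. At a limit of 2000 bp the second was 0.704 (adjusted p = 0.0463, Fisher exact test).

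**Figure D2:**
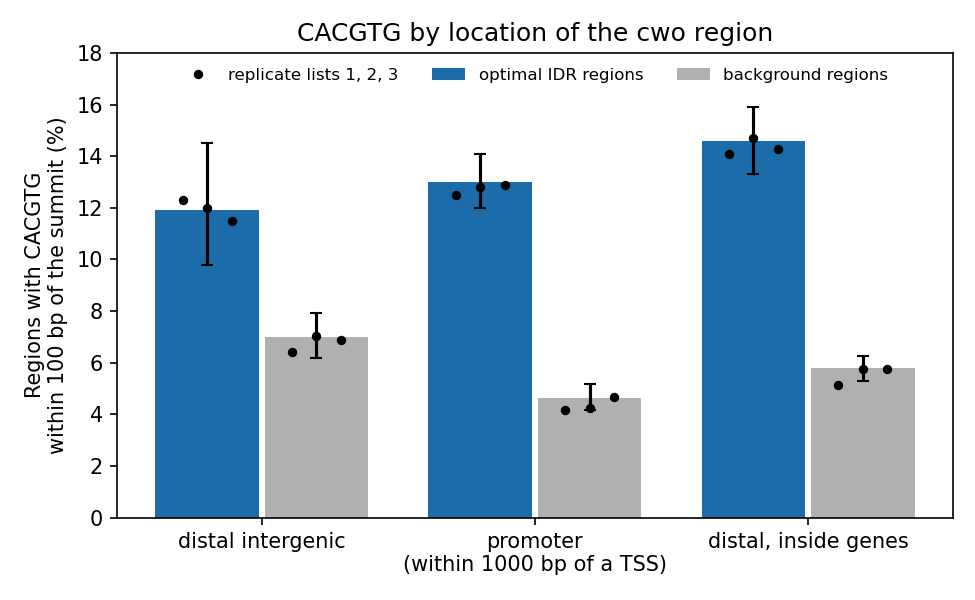
Share of regions with CACGTG within 100 bp of the summit (%, y axis) for the 3 location classes (x axis), optimal regions left and background regions right in each pair. Bars are the pooled list with 95% Wilson intervals and points are replicates 1, 2 and 3, and distal intergenic regions show the smallest step, 11.9% against 7.01%.

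The site sat close to the summit. The nearest CACGTG of the 86 regions lay at a median of 26.0 bp from the pooled summit, a value limited by their choice for a site within 100 bp. Measured from the replicates' own summits of the same 86 regions, the medians were 34.0, 31.5 and 26.5 bp, a mean of 30.7 ± 3.82 bp (SD, n = 3). Density against background does not have this limit. Within 40 bp there were 20.1 sites per 1000 regions and 20 bp bin at distal intergenic optimal summits (58 sites), against 9.49 at background summits (130 sites). Between 300 and 500 bp the density was 2.78 at optimal summits and 2.83 at background summits, so the difference was near the summit. Most regions with the site had a single one, and 3 of the 86 had more.

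**Figure D3:**
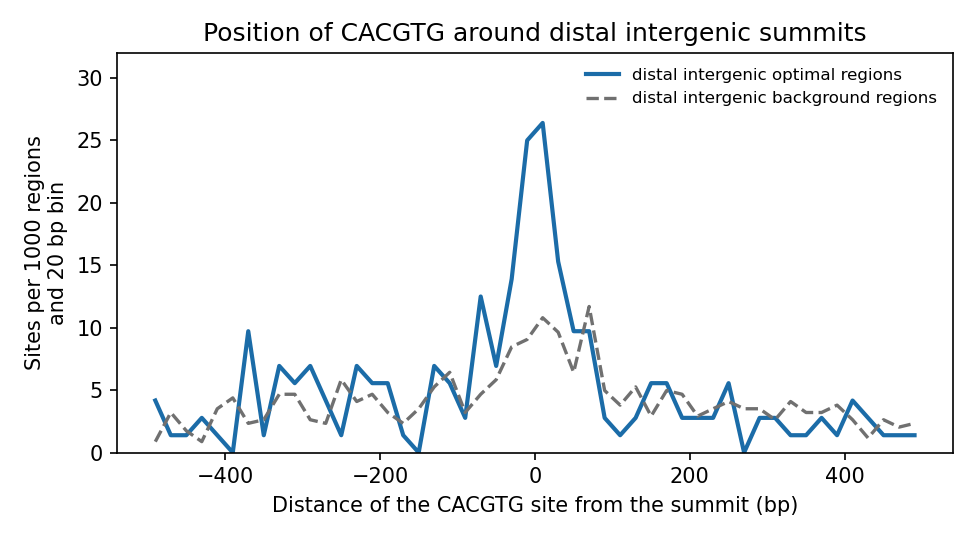
CACGTG sites per 1000 regions and 20 bp bin (y axis) by distance from the summit in bp (x axis), for 720 distal intergenic optimal regions (solid) and 3423 background regions (dashed). Within 40 bp the density is 20.1 for optimal and 9.49 for background regions, and between 300 and 500 bp it is 2.78 for optimal and 2.83 for background regions.

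Flanking bases of the E-box were compared as a description. Of the 89 sites at distal intergenic optimal summits 24 read GCACGTGA (27.0%), against 53 of 253 background sites (20.9%). A further 17 read GCACGTGC (19.1%), against 30 (11.9%). ACACGTGC was read at 17 optimal (19.1%) and 49 background (19.4%) sites, and CCACGTGG at 0 optimal sites, against 7 background sites (2.77%). With 89 sites these shares carry wide counting error, and no test was made.

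Stronger distal intergenic regions held the E-box more often. In 4 equal bins of pooled signal it lay at 33 of 180 summits in the strongest (18.3%, 13.4 to 24.6%), then at 19 (10.6%), 16 (8.89%) and 18 (interval 6.42 to 15.3%). Strongest against weakest bin gave an odds ratio of 2.02 (1.09 to 3.74) with p = 0.0336 in a Fisher exact test. Replicate means were 17.9 ± 0.766% in the strongest bin and 10.5 ± 0.556% in the weakest (SD, n = 3), without overlap. The call was lost under 8 of 13 alternative settings, with odds ratios between 1.52 and 2.81 over all of them. In regions that both other replicates held it was lost whichever replicate was left out, with odds ratios of 1.58, 1.73 and 1.71 without replicates 1, 2 and 3. The 10 strongest regions held CACGTG in 5 cases, the 20 strongest in 7 and the 50 strongest in 13.

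Among 22 listed motifs, searched on both strands within 100 bp of the summit, 4 were more frequent than in background at Benjamini-Hochberg adjusted p under 0.05, or 18.2% of those tested. After CACGTG (adjusted p = 5.4e-04, Fisher exact test) came CACGCG, at 52 of 720 summits (7.22%) against 133 of 3423 (3.89%), an odds ratio of 1.93 (1.38 to 2.68, adjusted p = 0.00154). In each replicate it was also more frequent, with means of 7.42 ± 0.685% at optimal summits and 4.33 ± 0.435% at background summits (SD, n = 3). CACGTG or CACGCG lay at 131 summits (18.2%) and both at 7.

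The other 2 were cores of the GATA family, transcription factors of blood, fat body and gut. CTTATC lay at 95 summits (13.2%) against 291 (8.50%), an odds ratio of 1.64 (1.28 to 2.09, adjusted p = 0.00154, Fisher exact test). TGATAA lay at 133 (18.5%) against 476 (13.9%), an odds ratio of 1.40 (1.14 to 1.73, adjusted p = 0.0117, Fisher exact test). The 2 hexamers can share their bases, so a single site can count for both. With 1 region per gap, the strongest, none of the 22 motifs passed adjustment, and the odds ratio was 1.72 for CACGCG, 1.44 for CTTATC and 1.21 for TGATAA. Both GATA cores also lost their call in windows of 50 bp, where CTTATC had 1.58 (adjusted p = 0.0620) and TGATAA 1.40 (adjusted p = 0.0728, Fisher exact tests). In the strongest 3683 optimal regions they did too, with 1.71 for CTTATC (adjusted p = 0.0529) and 1.41 for TGATAA (adjusted p = 0.253, Fisher exact tests). For CACGTG with 1 region per gap the odds ratio was 1.54 in its own single Fisher exact test (p = 0.0203).

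Further E-boxes and repressor sites did not pass. CACGAG, an N-box-like site, lay at 6.39% of summits against 4.41% (adjusted p = 0.0978, Fisher exact test), and CACAAG, the N-box, at 7.36% against 7.98%. The odds ratio was 1.07 for CACGTT, 1.16 for CACATG and 1.12 for CATATG. It was 0.790 for CAGCTG and 0.888 for CAGGTG, E-boxes of tissue-specific bHLH activators. For the repeat GAGAGA it was 1.06, for the Zelda site CAGGTAG 1.15 and for the AP-1 site TGACTCA 0.934. TATCGATA, the element of housekeeping promoters, was read at 1 distal intergenic optimal summit against 18 background summits. The 7 control palindromes had odds ratios between 0.511 and 1.41. GTGCAC was the highest (adjusted p = 0.0845, Fisher exact test). The odds ratio was 0.511 for ACCGGT, 0.896 for CCATGG, 1.04 for GACGTC, 0.682 for CTGCAG, 1.25 for GAATTC and 0.978 for AAGCTT.

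A search over all 2080 hexamer classes, a hexamer with its reverse complement, called 9 (0.433%) more and 14 (0.673%) less frequent than in background at adjusted p under 0.05. CACGTG had the smallest p of the 9 (adjusted p = 0.00784, Fisher exact test). Its call in this search was lost in windows of 250 bp (adjusted p = 0.0527), at a TSS limit of 2000 bp (0.109) and with 1 region per gap (0.489), all in Fisher exact tests. CACGCG and CTTATC were among them, with AATCTA at 14.9% against 9.35% of summits and CGATCG at 4.44% against 1.99%. The odds ratio was 1.67 for ATACAG, 1.61 for ATAGTA and 1.76 for CTAATC, and GATCAC lay at 5.83% against 3.07%. The smallest p of all classes belonged to a lower one, CAGGAC at 2.08% against 6.51% (odds ratio 0.305, adjusted p = 7.7e-04, Fisher exact test), and next by p came CAGGAA (odds ratio 0.437) and AGGACA (odds ratio 0.374). The GC content of the windows differed too, with a median of 37.3% at distal intergenic optimal summits and 40.3% at background summits. In replicates 1, 2 and 3 it was 39.8, 38.8 and 36.8% at optimal summits, against 42.3, 41.3 and 39.3% at background summits, lower in each replicate. Its part in the hexamer counts was not tested. The number of higher classes lay between 0 and 24 and that of lower classes between 0 and 40 over 13 alternative settings. With the strongest region of each gap no class passed adjustment.

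Genes nearest to distal intergenic optimal regions were often bound at their start too. The nearest TSS belonged to a gene with an optimal summit within 1000 bp of 1 of its TSSs for 262 of 720 regions (36.4%), against 564 of 3423 background regions (16.5%, 15.3 to 17.8%). The odds ratio was 2.90 (2.43 to 3.46), with p = 2.0e-30 in a Fisher exact test. Replicate values averaged 36.1 ± 1.93% for optimal and 16.3 ± 0.130% for background regions (SD, n = 3), without overlap. Background regions had to lie more than 1000 bp from every optimal summit, promoter ones included, so none could lie that close to one. With that distance set at 5000 bp the odds ratio was 10.6 (8.35 to 13.4), so its size depends on it. Past 2000 bp from any TSS the shares were 169 of 515 optimal regions (32.8%) and 439 of 2681 background regions (16.4%), and the odds ratio was 2.49 (2.02 to 3.08). The median distance to the nearest optimal promoter summit was 11105 bp for distal intergenic optimal regions and 24047 bp for background regions.

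Distances to genes differed less. The nearest TSS lay at a median of 3318 bp (quartiles 1823.2 and 6266.5 bp, highest 37671 bp), against 4047 bp in background (quartiles 2199 and 7539.5 bp). Replicate medians averaged 3264.7 ± 133.7 bp for optimal and 4025.5 ± 62.8 bp for background regions (SD, n = 3), without overlap. Past 10 kb lay 100 optimal regions (13.9%) against 559 background regions (16.3%). The summit was upstream of that start in 57.2% of optimal against 57.6% of background regions, and the nearest TSS was that of a noncoding RNA in 31.2% of both. A transposable element held 1 distal intergenic optimal summit, against 12 background summits.

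Gap orientation was tested over 3 kinds of gap between neighbouring coding genes. Tandem gaps took 44.9% of distal intergenic optimal regions against 49.8% of background regions, an odds ratio of 0.822 (0.699 to 0.966, adjusted p = 0.0522, Fisher exact test). Divergent gaps took 31.1% against 28.0% (odds ratio 1.16, 0.975 to 1.38) and convergent gaps 24.0% against 22.2% (1.11, 0.916 to 1.34), neither past adjustment. Tandem gaps passed under 4 of 11 alternative settings, and convergent gaps changed direction under 4. Divergent gaps passed under 1 of them, background over 5000 bp from optimal summits, with 1.41 (1.18 to 1.70, adjusted p = 7.8e-04, Fisher exact test).

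By chromosome arm the regions were uneven. The X took 80 (11.1%, 9.02 to 13.6%) against 462 of 3423 background regions (13.5%), an odds ratio of 0.801 (0.623 to 1.03, p = 0.0887, Fisher exact test). With regions that both other replicates held Fisher exact tests gave 0.697 without replicate 1 (p = 0.0153), 0.777 without replicate 2 (p = 0.0943) and 0.707 without replicate 3 (p = 0.0245). The X held 11.0, 10.3 and 10.4% of distal intergenic regions of the optimal kind in replicates 1, 2 and 3, against 11.6, 13.3 and 14.1% of background regions, without overlap. Arm 3L, singled out after its values were seen, took 245 (34.0%, 30.7 to 37.6%) against 870 (25.4%, 24.0 to 26.9%), an odds ratio of 1.51 (1.27 to 1.80, p = 3.6e-06, Fisher exact test). Replicate means were 34.0 ± 0.961% of optimal and 25.8 ± 0.554% of background regions (SD, n = 3), without overlap. With the strongest region of each gap the odds ratio was 1.24 (p = 0.104, Fisher exact test). Of the 18 gaps that held 5 or more regions 11 lay on 3L, with 102 regions. Outside those 18 gaps 143 of 567 regions (25.2%) were on 3L.

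The 720 regions fell into 428 gaps between protein-coding genes and 703 separate intervals, since some intervals carry several summits. In 302 gaps (41.9% of regions) the region was alone, while the 18 gaps with 5 or more held 153 (21.2%). CACGTG lay at 19 of these 153 summits (12.4%, 8.10 to 18.6%) and at 67 of the 567 others (11.8%, 9.41 to 14.7%). These intervals overlap. Regions within a gap share their surroundings and are not independent.

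**Figure D4:**
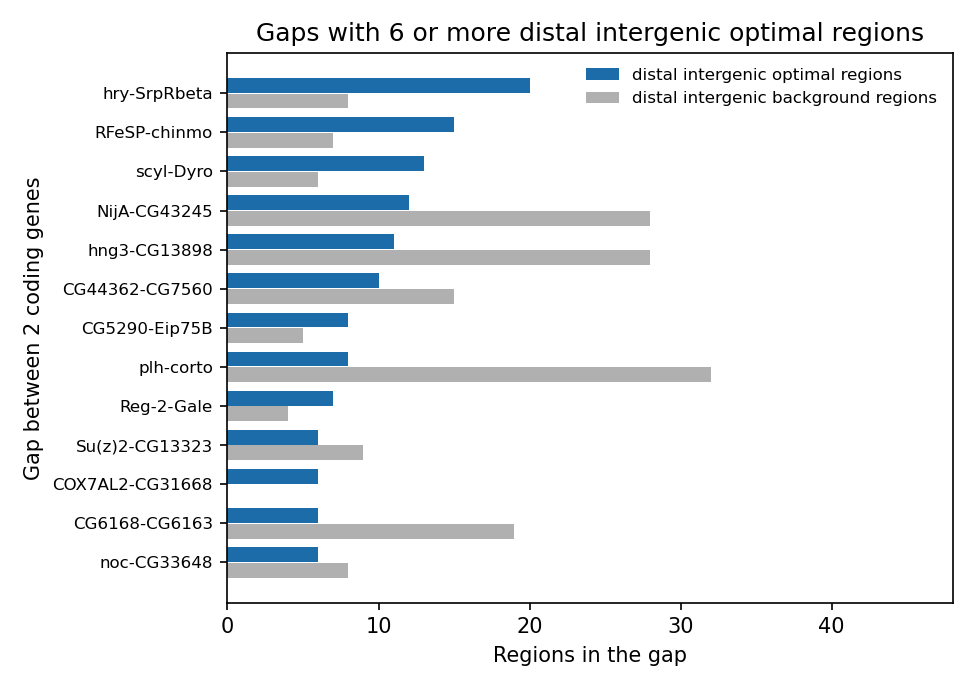
Number of distal intergenic optimal regions (upper bar) and background regions (lower bar) in the 13 gaps with 6 or more optimal ones, named by the genes on both sides (y axis, counts on the x axis). The hry gap leads with 20 regions against 8, while the gap between plh and corto has 8 against 32. Background summits lie more than 1000 bp from every optimal summit, so crowded gaps leave less room for them.

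The gap between hry and SrpRbeta, 3L:8679254-8718948, held 20 regions, more than any other gap, against 8 background regions. The pooled list had 41 summits there, and those within 1000 bp of an optimal summit cannot count as background. The 20 regions lay between 921 and 29792 bp past the 3′ end of hry, in 17 separate intervals, so a few share an interval and its neighbourhood. All replicates held 17 of them and 2 replicates held the other 3. The 7 strongest, at ranks 8, 10, 18, 82, 133, 653 and 849, are summits of only 4 intervals, those named above among the strongest 10. They lay 17446 to 26027 bp from hry and 13669 to 22250 bp from SrpRbeta, beside lncRNA:CR44526. Their lowest and highest ranks in a replicate were 8 and 1937. The 13 weaker ones, each in its own interval, had ranks from 1229 to 6447 and lay 921 to 29792 bp from hry, on both sides of the strong ones.

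Motifs in the hry gap varied. CACGTG lay at 4 of the 20 summits, those of ranks 8, 10, 3819 and 6098, and CACGCG at 5, those of ranks 10, 133, 2359, 3199 and 4049. The summit of rank 10 held both, and 12 held neither, ranks 18 and 82 included. Another 2 distal intergenic regions lay on the far side of hry, towards Pex7, at ranks 3203 and 6845. Without the hry gap the CACGTG odds ratio of the remaining 700 regions against background was 1.76 (1.35 to 2.29).

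**Figure D5:**
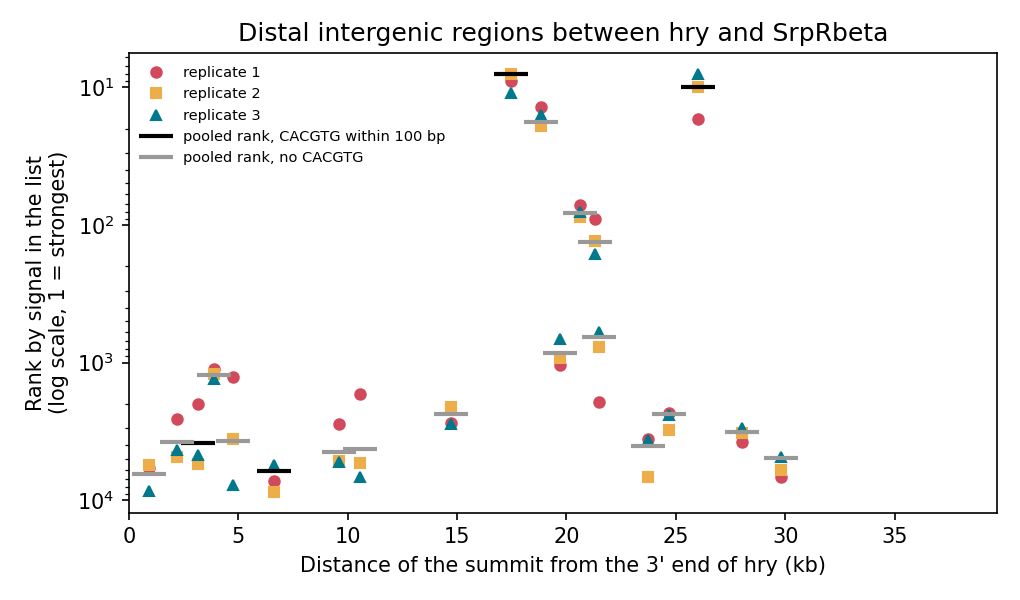
Rank by signal (y axis, log scale, strongest at the top) of the 20 distal intergenic regions in the gap between hry and SrpRbeta, by distance of the summit from the 3′ end of hry in kb (x axis). Bars are pooled ranks, black with CACGTG and grey without, and symbols are replicates 1, 2 and 3, and the strongest lie between 17446 and 26027 bp.

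Other crowded gaps were named after their counts were seen. Upstream of chinmo, 15 regions lay in 37097 bp, against 7 background regions, with ranks from 115 to 7123, and 1 of them held CACGTG. The gap between scyl, a growth inhibitor induced by low oxygen, and Dyro held 13 regions against 6, none stronger than rank 1480. NijA to CG43245 held 12 against 28, and hng3 to CG13898 held 11 against 28. The shortest crowded gap, 5808 bp between COX7AL2 and CG31668, held 6 regions against 0 background regions, or 10.3 per 10 kb. Background summits must lie more than 1000 bp from every optimal summit, so a crowded gap leaves little room for them. Their counts in such gaps can be held down by this definition.

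Genes were counted in the lists below if they flanked a distal intergenic region, optimal or background. Of the 8 genes of the clock loop 4 did so, and 2 of those, cwo and the photoreceptor gene cry, flanked an optimal one. The others, vri and Pdp1, transcription factors of the second loop, did not. Over all coding genes the share was 790 of 2213 (35.7%). Upstream of cwo the gap, which ends at Rfx, held 5 optimal regions, summits of only 2 intervals. It held 0 background regions, which cannot lie within 1000 bp of an optimal summit. Of the 5 optimal regions 3 had CACGTG, at ranks 28, 117 and 3064. The region at 3R:10379274-10381370 ranked 159, 109 and 118 in replicates 1, 2 and 3. Its summit lay 7079 bp from cwo and 3111 bp from the start of Rfx, its nearest TSS. Beside cry, a single region 6525 bp away had CACGTG at rank 6103, and its replicate ranks were 14444, 6591 and 4852.

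All 5 bHLH-Orange genes that flanked an optimal or background distal intergenic region flanked an optimal one, against 35.7% of all coding genes so counted. These were hry with 22 regions, cwo with 5 in 2 intervals, E(spl)mbeta-HLH with 4, and E(spl)m5-HLH and E(spl)mgamma-HLH with 1 each. Some of the regions counted for hry lay nearer SrpRbeta, at the other end of their gap. The E(spl)mgamma-HLH region lay in the gap shared with E(spl)mbeta-HLH and is also 1 of those 4, so the 5 genes are not separate cases. A gene could enter the count of 5 through its optimal regions alone. That was so for E(spl)mbeta-HLH, with 0 background regions in the gaps on both sides, so the count is a description. The strongest region beside E(spl)mbeta-HLH, a Notch target, ranked 1043, 1621 and 1980 in replicates 1, 2 and 3, without CACGTG. Of the 4 tested Notch pathway genes numb, an inhibitor of Notch, and fng, a modifier of the receptor, were flanked at ranks 4432 and 6251. The first of these regions lay 26823 bp from numb, in a gap of 26991 bp that ends at Gdi. The other lay 18700 bp from fng, in a gap of 19559 bp that ends at CG11458. Both were thus much nearer the other gene of the gap. Myc, the growth regulator that also binds E-boxes, had 4 regions, the strongest at rank 3401 and 12596 bp away.

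Hormone and signalling genes followed. Eip75B had 8 regions, of which 0 had CACGTG and 4 had CACGCG. The ecdysone list counted 3 of 7 (42.9%), against 35.7% of all coding genes, with E23, an ABC transporter, next at rank 3106. Ligand genes were flanked in 7 of 15 cases (46.7%), against the same 35.7%. These 7 are not separate, since upd1 and upd3 shared 1 region, and Wnt4 and wg another. The strongest region of the ligand list lay 212 bp past the 3′ end of bnl, the FGF of tracheal branching. It had CACGTG and ranked 373, 531 and 455 in replicates 1, 2 and 3. Next came Wnt4, with a region 450 bp past its 3′ end at ranks 436, 482 and 676 and without CACGTG.

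Patterning and tissue genes gave small counts on either side of the share of all coding genes. Hox and segmentation genes were flanked in 4 of 13 cases, led by slp1 and slp2, which share 1 region at rank 1216. In the GATA and blood list 1 of 3 was flanked, srp, the GATA factor of blood and fat body, by a region at rank 4641. Epidermis and trachea genes were flanked in 3 of 8 cases, led by bnl and the cadherin gene shg (rank 3068, 15615 bp away in a gap of 23567 bp). Muscle genes were flanked in 2 of 4, the actins Act57B and Act87E at ranks 3930 and 4325. Of neuronal and glial genes 1 of 6 was flanked, Syt1, the synaptic vesicle calcium sensor, by a region with CACGTG at rank 1221. Lipid and sugar metabolism genes were flanked in 0 of 3 cases. Lists of this size give no test, and these counts are descriptions.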

How the data were processed

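Each file lists enriched regions, and its signal column is a deposited score that the authors' peak caller gave to each region. Per the labels and the notes with each library, calls were made in each replicate against 1 control alignment and again on the pooled alignments, in relaxed lists of 30000 regions made as input for IDR. The sources used here do not give the peak caller, the aligner, the IDR threshold or the scale of the score, and an age field of the labels that is no plausible age was not used. The dm3 lists were not used.

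Summits (start plus offset) were placed against Ensembl release 115 genes on 6 arms (18164 genes, 35497 transcripts), and sequence came from the RefSeq Release 6 genome. Score was used only within a list. Shares were compared by two-sided Fisher exact tests, with 95% Wilson intervals for shares and Woolf intervals for odds ratios, and Benjamini-Hochberg adjustment over 22 motifs, 2080 hexamer classes or the comparisons named. Regions named are the 10 strongest, those of the gap with most regions, 3 on each side of the limit and the leading 2 flanking genes of each of 12 gene lists, and others were named after their values were seen. Dl, nct and Eip71CD were on the lists and are not analysed here. Members, lists and motifs were chosen with earlier results of these data known. The hexamer test was tested on simulated data. Tools were Python 3.11.15, NumPy 2.4.6, pandas 2.3.3, SciPy 1.17.1 and statsmodels 0.14.6.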

Additional observations from a re-analysis of the deposited data

How the results depend on the processing

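Alternatives were other TSS limits (500 and 2000 bp), coding genes only, the strongest 3683 optimal regions, no secondary summits (a stronger summit within 400 bp), background over 5000 bp from optimal summits, windows of 50 and 250 bp, GC content as a covariate, and regions held by both other replicates in place of leaving one out. Log2 signal as a covariate, the strongest region of each gap and the omission of the hry gap were added after the data were seen. All 3 samples belong to 1 group, so no replicate numbers pair 2 groups, but each replicate gives an optimal and a background value. Their paired difference had the same sign in all 3 replicates for each of 14 measures, among them CACGTG at distal intergenic summits, 5.88, 4.91 and 4.55 percentage points. The replicate lists hold largely the same regions, so a shared sign is a description and no test. The 14 include the X share and the 3 gap orientations, none of which passed the threshold in the main tests over regions. The optimal list itself came from pooled reads, so omission of a replicate is a stricter choice of regions and not a new call.

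CACGTG against background kept its direction and its side of the threshold under all 14 alternatives run, with odds ratios from 1.44 to 2.65, as did the share of distal intergenic regions (0.354 to 0.845, 11 alternatives), the bound promoter of the nearest gene (2.21 to 10.6, the highest with background over 5000 bp away, which removes neighbours of optimal summits) and both ratios of odds ratios (0.503 to 0.631 for promoters, 0.555 to 0.721 inside genes). For the changes that follow the cause was not tested.

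At a limit of 500 bp the odds ratio of CACGTG against promoters was 1.04, convergent gaps had 0.978, and 22 hexamer classes were higher and 28 lower. At 2000 bp CACGTG inside genes had 0.704, CACGTG by strength 1.64 and tandem gaps 0.776, with 0 higher and 6 lower classes. Coding genes only gave 0.828 for tandem gaps and 24 and 32 classes. In the strongest 3683 regions CACGTG by strength was 1.52, the share of strong regions 0.870 (no longer past the threshold), tandem gaps 0.727 and being held by all replicates 1.62, with 2 listed motifs and 2 and 0 classes. Without secondary summits CACGTG by strength was 1.74. Background over 5000 bp away gave 1.41 for divergent gaps, now past the threshold, 0.792 for tandem and 0.942 for convergent gaps, and 5 higher classes. Windows of 50 bp gave 2 listed motifs (without CTTATC and TGATAA) and 1 and 0 classes, and of 250 bp 1.72 for CACGTG by strength and 22 and 40 classes, CACGTG not among them. Log2 signal gave 1.07 for CACGTG against promoters. One region per gap gave 1.72 for CACGTG by strength, 0.904 for convergent gaps, 1.24 for 3L and 0.858 for being held by all replicates, with 0 listed motifs and 0 and 0 classes. Without the hry gap convergent gaps had 0.989 and 5 classes were higher. Leaving out each replicate gave 1.58 to 1.73 for CACGTG by strength, 0.697 to 0.777 for the X, 4 to 6 higher and 7 to 10 lower classes.

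Depth limits are unknown, and rarer motifs such as TATCGATA (1 summit) cannot be compared closely.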
